A study of Rattus norvegicus with 32 samples.

Results

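The extracellular matrix, integrin and metalloproteinase genes of the rat mammary gland were followed across 6 groups of rats. They were taken by symbol: probe sets with 1 gene symbol that starts with Col and a digit, Lama, Lamb, Lamc, Itga, Itgb, Mmp or Timp and a digit, or that is Bgn, Dcn, Sparc, Fn1, Efemp1 or Spock2. This gave 80 probe sets of 53 genes, of 8799 probe sets on the array, 7018 of which carry 1 symbol, for 4737 genes. The rule reads only symbols, but it was set with earlier results of these data known.

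Total RNA of normal mammary gland was hybridised to 30 arrays, 5 for each of 6 groups. These are F1, a cross of Cop with F344, then its parents Cop and F344 themselves, and ACI, BUF/N and WF, which like the parents are inbred. All groups are untreated as far as the labels say, and age, sex and the number of animals per array are not given in the sources used here. A pool of Cop and a pool of F344 RNA were also hybridised and are given apart. The title of the series names genetic susceptibility to mammary carcinogenesis, for which Cop and its F1 hybrids are known as resistant and F344, BUF/N and WF as susceptible. Because nothing states that the 5 arrays of a group are separate animals, the p-values below measure the spread between these samples.

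The extracellular matrix of the gland is made mostly by stromal fibroblasts. Fibrillar collagens give it tensile strength, laminins and network-forming collagens build the basement membrane under the epithelium, and small proteoglycans and matricellular proteins regulate fibre assembly and cell contact. Cells hold this matrix through integrins, heterodimers of an alpha and a beta chain. Matrix metalloproteinases cut matrix proteins, and the tissue inhibitors of metalloproteinases, the Timp proteins, block them. The balance of both is known to shape ductal branching and involution of the mammary gland.

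Values are signals of the Affymetrix Microarray Suite 5.0 on a linear scale. A probe set was tested where at least 5 arrays exceeded the median of all values, 78.4, and signals under 18.3, the 25th percentile, were set to 18.3 before the log2 step. Of the 80 probe sets 58 were tested, for 37 genes, with mean signals over the 30 arrays of 55.8 to 9025. The other 22 had mean signals of 2.70 to 61.9, and 16 genes had no tested probe set. The arrays were scaled alike by the authors, with trimmed means of 250.3 to 250.4. In bulk tissue, fewer cells of a type and less RNA per cell cannot be told apart, and signals of different probe sets are not compared in level.

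Several arrays stood apart from their group. F1 2 and F1 3 had correlations of 0.846 to 0.893 with the other F1 arrays, against 0.946 to 0.978 among those, and 0.959 with each other. ACI 2 and ACI 5 had correlations of 0.876 to 0.913 with the other ACI arrays and 0.951 with each other. The highest signal on an array was 11982.7 to 19718.6 on the F1 arrays, against 6968.1 to 12649.4 on the other 25. Changes in F1 against its parents whose call depends on F1 2 and F1 3 are given with and without them.

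Some cell type markers moved with the groups. Over all tested probe sets, 17.4% were higher and 17.8% lower in F1 than in its parents. Against the other 4 inbred strains, 5.54% were higher and 6.21% lower in Cop, and 4.41% and 7.92% in F344. In BUF/N these shares were 8.43% and 9.61%, and in WF 3.37% and 2.80%. Of 7 tested luminal epithelial marker genes, which include Krt8, Krt18 and Epcam, 6 were higher in F1 than in its parents, 7 were lower in Cop than in the other 4 inbred strains, and 6 were higher in BUF/N. In WF 2 were higher. Their summed signal was 4907 to 7834 on F1 arrays, 2275 to 4500 on Cop, 4360 to 6168 on F344, 3800 to 6178 on ACI, 6826 to 8535 on BUF/N and 6353 to 8448 on WF arrays. Of 6 basal or smooth muscle markers, all were higher in F1 than in its parents, 5 were lower in Cop, 3 were lower in F344, 1 was higher in BUF/N and 4 were higher in WF. Their sums were 9249 to 12638 on F1 arrays, 4346 to 7427 on Cop, 5749 to 6933 on F344, 6393 to 9115 on ACI, 7408 to 8667 on BUF/N and 8392 to 11102 on WF arrays. Of 7 adipocyte markers, 4 were higher in Cop, with sums of 20903 to 26983 on Cop arrays, against 12853 to 22473 on arrays of the other 4 strains. In BUF/N 3 were lower, in WF 1 was lower, and in F1 3 were lower and 1 higher than in its parents. Of 5 fibroblast markers, 1 was higher in Cop and none was lower, and 1 was lower in F1 than in its parents. In F344 1 was lower, and in BUF/N 1 was higher and 1 lower. The summed signal of these 5 was 4207 to 5451 on F1 arrays, 6263 to 8975 on Cop and 5364 to 6422 on F344 arrays. It was 5624 to 6556 on ACI, 5119 to 6268 on BUF/N and 5728 to 7071 on WF arrays. The 6 milk protein genes, which define the tissue, were all tested, with Csn1s2a at the floor on 10 arrays, Wap on 4 and Csn2 on 1. Their sums were 17097 to 35835 on F1 arrays, 4515 to 11043 on Cop and 6851 to 10076 on F344 arrays. On ACI arrays they were 11503 to 21204, on BUF/N 12249 to 29071 and on WF 8510 to 24301. In F1 5 were higher than in its parents. Against the other 4 strains 3 were lower in Cop, 2 lower in F344, 2 higher in ACI and 3 higher in BUF/N. No luminal, basal or adipocyte marker was at the signal floor on any array. Of 3 endothelial markers, 2 were lower in F1 than in its parents. The part of these cells in the results below was not tested.

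Promoter sequences, 250 bases before to 50 bases after the gene start, were read from RefSeq on the rat build GRCr8, which is of another strain than those studied. They were given for 38 of the 53 genes. The metalloproteinase genes of chromosome 8 lie next to each other and share a layout, so 4 of them are shown, Mmp12 and Mmp3, which were tested, and Mmp13 and Mmp10, which had mean signals of only 5.12 and 7.39. The 100 bases before the start are printed, on the plus strand, at chr8:12866552-12866651 for Mmp12, chr8:12925181-12925280 for Mmp3, chr8:12782729-12782828 for Mmp13 and chr8:12974607-12974706 for Mmp10. Capitals mark TGANTCA, the element that AP-1 binds, and the TATA element TATAAA.
Mmp12: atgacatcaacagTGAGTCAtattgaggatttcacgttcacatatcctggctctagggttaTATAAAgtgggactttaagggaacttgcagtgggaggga
Mmp3: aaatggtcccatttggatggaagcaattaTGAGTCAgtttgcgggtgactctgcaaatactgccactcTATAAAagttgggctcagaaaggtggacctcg
Mmp13: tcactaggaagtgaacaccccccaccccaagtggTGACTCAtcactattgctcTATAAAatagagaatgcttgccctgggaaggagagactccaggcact
Mmp10: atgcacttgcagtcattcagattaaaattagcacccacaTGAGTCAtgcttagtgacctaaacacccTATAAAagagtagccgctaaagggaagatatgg
Of the 6 metalloproteinase promoters on chromosome 8, 5 held TGANTCA, 61 to 87 bases before the start, and all 6 held TATAAA or its reverse complement. All motifs were searched on both strands of the 300 bases. Among all 33469 promoters of the table, 7.33% held TGANTCA and 14.2% held TATAAA. Over the 38 promoters, 7 held TGANTCA, 9 held TATAAA, 8 held CCAAT (37.5% of all promoters) and 18 held GGGCGG (33.1% of all). In the sequences printed here no match overlapped another, and a match is a description of the letters only.

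Across the 6 groups 36 of the 58 tested probe sets, 27 genes, differed by the F test, with 51.8% of all 5039 tested probe sets passing the same test. By role, 4 of 10 probe sets of fibrillar collagens passed, 4 of 5 of other collagens, 3 of 4 of laminins, 12 of 18 of matricellular and other matrix genes, 6 of 11 of integrins and 7 of 10 of metalloproteinases and their inhibitors. Over the 15 pairs of groups 189 probe set and pair combinations passed, 21.7% of them, against 15.8% over all probe sets, and 98 of the 189 passed under each of 39 alternative settings. F1 differed from Cop at 22 of the 58 (26.3% of all tested probe sets), from F344 at 20 (31.7%), from ACI at 15 (29.2%), from BUF/N at 13 (17.3%) and from WF at 14 (15.2%). Cop differed from F344 at 6 (3.45% of all), from ACI at 9 (7.60%), from BUF/N at 23 (23.3%) and from WF at 15 (12.8%). F344 differed from ACI at 11 (12.3%), from BUF/N at 17 (23.8%) and from WF at 10 (11.3%). ACI differed from BUF/N at 6 (13.7%) and from WF at 6 (7.18%). BUF/N and WF differed at 2 (2.22%), Efemp1 at D89730_g_at, lower in BUF/N, and Spock2, higher in BUF/N. The median log2 change of the 58 was 0.17 in F1 minus the mean of its parents, against 0.02 over all tested probe sets, and -0.01 in Cop minus the other 4 strains, against -0.03 over all.

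**Figure D1:**
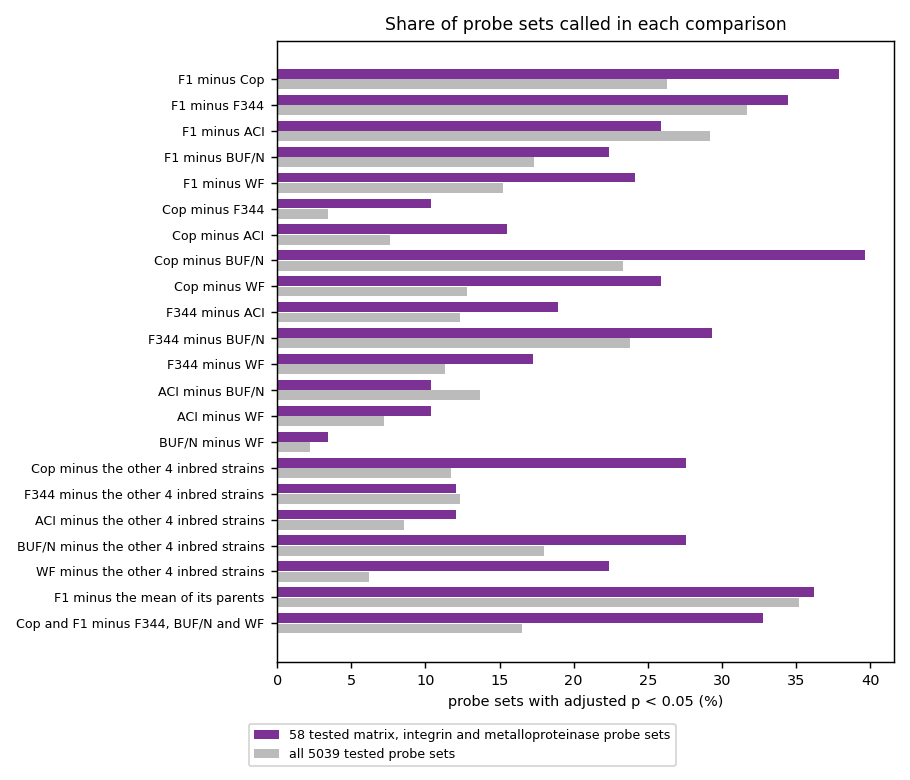
Share of probe sets with an adjusted p under 0.05 in each comparison (horizontal axis, percent), for the 58 tested probe sets of this gene group (purple) and for all 5039 tested probe sets (grey). The share of the 58 was above the share of all probe sets in most comparisons, and was below it in F1 minus ACI, ACI minus BUF/N and F344 minus the other 4 strains.

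The comparison of Cop with the other 4 inbred strains asks which genes set Cop apart. It is not one of resistant with susceptible strains, since the susceptibility of ACI is not stated here. In Cop 16 probe sets differed, 5 higher and 11 lower, with 11.7% of all probe sets passing (5.54% higher and 6.21% lower). The lower ones were Col2a1, Spock2, Itga8, Mmp12, Mmp2, 1 of 2 probe sets of Bgn, Mmp14, Lama3, Itgb4, Timp1 and Lamc1. The higher ones were all 3 probe sets of Itga7, Col15a1 and 1 of 4 probe sets of Sparc. Of the 16 calls 10 passed under each of the 39 alternatives. Those of Timp1, Lamc1 and Sparc were lost in 17 to 25 of them, and those of Itgb4, Col15a1 and 1 Itga7 probe set were lost without single Cop arrays. In F344 3 were higher and 4 lower, 7 in all, with 12.3% of all probe sets passing (4.41% higher and 7.92% lower). In ACI 4 were higher and 3 lower, with 8.57% of all passing (4.23% and 4.35%). In BUF/N 8 were higher and 8 lower, with 18.0% of all passing (8.43% and 9.61%). In WF 8 were higher and 5 lower, with 6.17% of all passing (3.37% and 2.80%). Without ACI 2 and ACI 5 there were 3 calls in ACI, all lower, and in WF the count was 5 without WF 2, 7 without WF 3 and 8 without WF 1. In F344 it was 4 without F344 2 or F344 5, and 12 without F1 2 and F1 3. In BUF/N it was 10 without BUF/N 3, and in ACI 3 without ACI 2, ACI 4 or ACI 5. Shares of all probe sets with these arrays left out are not given here.

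In all 4 pairs with the other inbred strains, Itga7 at X65036_at was called higher and Col2a1 lower in Cop, and Efemp1 at D89730_g_at lower in BUF/N. No probe set met this rule for F344, ACI or WF. Over all tested probe sets the rule took 0.714% for Cop, 0.675% for BUF/N, 0.496% for F344, 0.734% for ACI and 0.377% for WF.

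**Figure D2:**
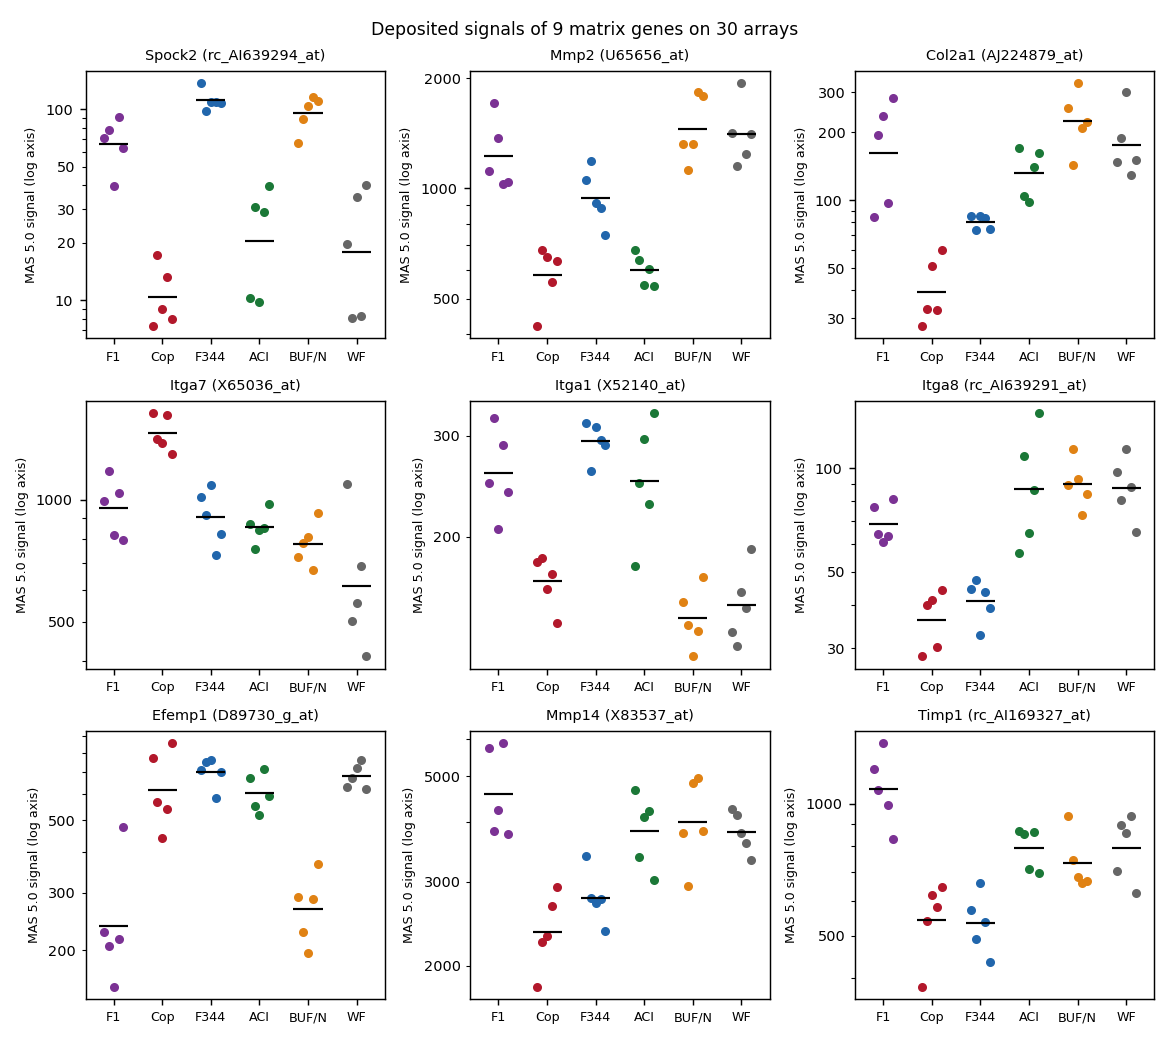
Deposited MAS 5.0 signals (vertical axes, log scale) of 9 genes on the 30 arrays, with F1 left of Cop, F344, ACI, BUF/N and WF. Each point is 1 array and each line the geometric mean of 5 arrays. Spock2 is low in Cop, ACI and WF, Mmp2 is low in Cop and ACI, and Efemp1 is low in F1 and BUF/N.

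Among the fibrillar collagens, Col2a1 differed most between the strains, while the major collagens of the gland, Col1a1, Col1a2 and Col3a1, were not called in any inbred strain against the other 4. Col2a1 encodes the chain of type II collagen, best known from cartilage. Its probe set AJ224879_at had signals of 84.6, 195.0, 236.7, 97.6 and 283.8 on F1 arrays, 27.7, 33.0, 51.4, 32.8 and 60.4 on Cop arrays and 85.1, 73.7, 85.0, 83.5 and 74.6 on F344 arrays. The signals were 170.6, 104.1, 97.7, 140.4 and 161.5 on ACI arrays, 257.0, 142.6, 330.6, 209.0 and 220.7 on BUF/N arrays and 148.0, 188.9, 300.1, 128.7 and 151.2 on WF arrays. All 5 Cop arrays lay below all 25 others, and all F344 arrays lay below all ACI, BUF/N and WF arrays. Col2a1 was lower in Cop than in the other 4 strains (log2 change -1.86, SE 0.232, adjusted p = 2.24e-06) and higher in BUF/N (log2 change 1.28, SE 0.232, adjusted p = 0.000305). The groups ran, from high to low, BUF/N, WF, F1, ACI, F344 and Cop, and no neighbouring pair in this order passed the test except Cop and F344 (adjusted p = 0.0442), a call lost in 16 of 39 alternatives. The higher call in WF (log2 change 0.83, adjusted p = 0.0287) was lost without WF 2 or WF 3. A second Col2a1 probe set had a mean signal of 6.39 and was not tested.

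Col5a2, a chain of type V collagen that regulates fibril diameter, was lower in BUF/N than in the other 4 inbred strains (log2 change -0.48, SE 0.111, adjusted p = 0.00335). Its signals were 2306.5, 1400.8, 1612.5, 1894.5 and 1974.1 on BUF/N arrays, against 1673.1 to 3143.7 on the 20 other inbred arrays, and 2 BUF/N arrays lay below all of those. Col1a2 at rc_AA875531_s_at passed the F test (adjusted p = 2.72e-05), and its signals are given with F1 below. Col3a1 at X70369_s_at, the chain of type III collagen, did not pass (adjusted p = 0.658), but did without F1 2 and F1 3 (0.0244) and after quantile normalization (0.0207). Col5a1, the other chain of type V collagen, did not pass (adjusted p = 0.384). Both Col11a1 probe sets had mean signals of 3.83 and 6.74 and were not tested.

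Of the other collagens, Col26a1 was higher in BUF/N than in the other 4 strains (log2 change 0.64, SE 0.169, adjusted p = 0.00844). It had 167.8, 87.4, 130.2, 136.3 and 133.7 on BUF/N arrays, against 55.6 to 141.4 on the 20 other inbred arrays, and only BUF/N 1 lay above that range. Col4a5, a chain of the basement membrane network of type IV collagen, was lower in BUF/N (log2 change -0.76, SE 0.21, adjusted p = 0.0128), a call lost without BUF/N 3 (adjusted p = 0.0757). It had 98.0, 114.1, 78.2, 131.4 and 188.8 on BUF/N arrays, against 81.9 to 300.2 on the 20 others, with 4 of the 5 inside that range. Col15a1, a collagen of basement membrane zones, was higher in Cop (log2 change 0.57, SE 0.165, adjusted p = 0.0221). Its Cop signals were 1112.1, 625.1, 342.5, 486.2 and 1002.0, with Cop 1, Cop 2 and Cop 5 above all 20 arrays of the other inbred strains, and the call was lost without Cop 1 or Cop 5 (adjusted p = 0.179 and 0.126). Col12a1, which sits on the surface of fibrils, was lower in F344 (log2 change -0.49) and higher in ACI (log2 change 0.52), and both calls were lost after quantile normalization (adjusted p = 0.12 and 0.0982), the ACI call also without ACI 2 and ACI 5 (0.414). Col10a1, known from hypertrophic cartilage, did not pass the F test at its tested probe set (adjusted p = 0.692). Col4a3, Col8a1 and Col9a1 were not tested, with mean signals of 23.3, 57.8 and 13.4.

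Laminins are trimers of an alpha, a beta and a gamma chain. Lama3, an alpha chain of epithelial basement membranes, passed the F test (adjusted p = 0.0032). It had 97.3, 76.6, 102.6, 106.6 and 129.5 on Cop arrays, 188.0, 132.5, 138.9, 166.2 and 156.0 on F344, 94.9, 143.0, 107.9, 119.1 and 151.1 on ACI, 149.2, 109.3, 128.3, 169.4 and 182.6 on BUF/N and 198.2, 188.0, 162.8, 176.2 and 200.7 on WF arrays. Cop arrays lay below all F344 and WF arrays and overlapped ACI and BUF/N. Lama3 was lower in Cop than in the other 4 strains (log2 change -0.57, SE 0.139, adjusted p = 0.00614), as were all 7 luminal epithelial markers, and higher in WF (log2 change 0.52, adjusted p = 0.0226), a call lost without WF 1, WF 2 or WF 5 (0.0606 to 0.0755). Lamc1, the gamma chain shared by most laminins, had 844.1, 889.4, 811.6, 1023.9 and 903.6 on Cop arrays, against 817.7 to 1447.5 on the other 20 inbred arrays. Its lower level in Cop (log2 change -0.27, adjusted p = 0.0444) was lost in 17 of 39 alternatives. Lamb2, a beta chain, was called in no inbred strain at either of its 2 probe sets. Lama1, Lama2 and Lama5 were not tested, with mean signals of 45.6, 57.8 and 10.6.

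Of the matricellular and other matrix genes, Spock2 and Efemp1 carried the largest strain differences. Spock2 encodes testican-2, a proteoglycan related to Sparc. It had 70.8, 77.8, 39.8, 90.7 and 62.8 on F1 arrays, 7.3, 17.3, 9.0, 13.2 and 8.0 on Cop arrays and 137.6, 98.3, 108.8, 109.4 and 107.9 on F344 arrays. It had 10.2, 30.9, 9.8, 28.8 and 39.4 on ACI arrays, 66.7, 89.0, 103.6, 115.7 and 111.0 on BUF/N arrays and 19.6, 8.1, 34.6, 8.3 and 40.3 on WF arrays. F1, F344 and BUF/N arrays were all above the arrays of Cop, and all but F1 3 were above the arrays of ACI and WF. All 5 Cop arrays, 2 ACI arrays and 2 WF arrays lay under the floor of 18.3, so changes against Cop are bounds: at least 3.60-fold in F1, 6.10-fold in F344 and 5.21-fold in BUF/N over the floor. The F test gave an adjusted p of 4.82e-09. Spock2 was higher in F344 (log2 change 1.78, SE 0.214, adjusted p = 8.9e-07) and BUF/N (log2 change 1.5, SE 0.214, adjusted p = 1.7e-05) than in the other 4 strains. Neither F344 and BUF/N (adjusted p = 0.568) nor ACI and WF (0.923) differed past the threshold. The lower calls in ACI and WF were lost with a floor at the 10th percentile (0.107 and 0.0501). F1 lay between its parents, above Cop (log2 change 1.85, adjusted p = 2.03e-05) and below F344 (log2 change -0.76, adjusted p = 0.033), the second call being lost in 8 of 39 alternatives.

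Efemp1 encodes fibulin-3, a glycoprotein of elastic tissue. At D89730_g_at it had 227.1, 206.2, 155.2, 216.2 and 475.4 on F1 arrays and 291.7, 227.7, 196.2, 287.0 and 367.2 on BUF/N arrays. It had 442.1 to 858.1 on Cop, 583.8 to 760.1 on F344, 518.1 to 713.8 on ACI and 622.3 to 765.1 on WF arrays. All BUF/N arrays lay below all arrays of the other 4 inbred strains, and 4 of the 5 F1 arrays did. Efemp1 was lower in BUF/N (log2 change -1.28, SE 0.168, adjusted p = 4.11e-06) and in F1 than in the mean of its parents (log2 change -1.47, SE 0.184, adjusted p = 1.8e-06), and F1 and BUF/N did not differ past the threshold (adjusted p = 0.598). The other Efemp1 probe set, D89730_at, did not pass the F test (adjusted p = 0.0601, and 0.0167 to 0.196 under the alternatives) and had a log2 change of -0.01 in F1 minus the mean of its parents. It was higher in WF than in the other 4 strains (log2 change 0.50, adjusted p = 0.0437), a call lost in 19 of 39 alternatives. The lower level in F1 and BUF/N was thus measured at 1 of the 2 probe sets.

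Bgn and Dcn, for biglycan and decorin, small leucine-rich proteoglycans that bind collagen fibrils, differed between strains at some of their probe sets. Bgn at U17834_at had 953.6, 786.6, 1101.7, 903.7 and 829.4 on F344 arrays, against 687.8 to 1940.7 on the other 20 inbred arrays, and was lower in F344 (log2 change -0.48, SE 0.108, adjusted p = 0.00384). Bgn at rc_AA859830_s_at had 204.9, 211.9, 206.9, 264.4 and 273.3 on Cop arrays, against 210.7 to 631.3 on the 20 others, and was lower in Cop (log2 change -0.71, SE 0.186, adjusted p = 0.0101). Cop and F344 did not differ past the threshold at either Bgn probe set. At both probe sets, Cop and F344 were each called lower than BUF/N and WF. Both Bgn probe sets were higher in WF, on the log2 scale U17834_at by 0.42 (adjusted p = 0.016) and rc_AA859830_s_at by 0.61 (0.0456), calls lost in 2 and 22 of 39 alternatives. Bgn was also higher in BUF/N at rc_AA859830_s_at (log2 change 0.58, adjusted p = 0.0289), lost in 4 of 39. Dcn was lower in BUF/N at rc_AI639233_s_at (log2 change -0.87, adjusted p = 0.017) and at Z12298cds_s_at (log2 change -0.45, adjusted p = 0.0174), both lost without BUF/N 3 (0.081 and 0.125). ACI 2 and ACI 5 had 3242.5 and 3161.5 at Dcn rc_AI639233_s_at, against 850.0 to 1239.0 on the other 3 ACI arrays. Fn1, for fibronectin, was called in 1 inbred strain at 1 of its 5 probe sets, higher in ACI at U82612cds_at (log2 change 0.91, adjusted p = 0.0476), a call lost in 24 of 39 alternatives. Sparc, a collagen-binding matricellular protein, was higher in Cop at rc_AA891204_s_at only (log2 change 0.51, adjusted p = 0.049), lost in 25 of 39.

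Of 8 tested integrin genes 4 passed the F test, Itga1, Itga7, Itga8 and Itgb4. Itga7, the alpha chain of a laminin receptor known from skeletal and smooth muscle, was higher in Cop at all 3 probe sets. At X65036_at it had 991.4, 1178.4, 819.7, 1039.3 and 796.1 on F1 arrays, 1638.7, 1413.4, 1383.2, 1622.0 and 1296.1 on Cop arrays and 1016.1, 920.3, 1086.9, 730.7 and 822.0 on F344 arrays. It had 872.7, 754.4, 843.0, 851.2 and 979.2 on ACI arrays, 722.4, 782.4, 809.2, 670.7 and 928.6 on BUF/N arrays and 1097.3, 503.0, 556.7, 688.0 and 410.9 on WF arrays. All Cop arrays lay above all 25 others. The change in Cop against the other 4 strains was 0.91 at X65036_at (SE 0.14, adjusted p = 4.41e-05), 1.0 at X74293_s_at (SE 0.171, adjusted p = 0.000172) and 0.40 at X65036_g_at (SE 0.118, adjusted p = 0.0229), the last lost without Cop 2 or Cop 4 (0.0879 and 0.0765). In WF all 3 probe sets were lower, with log2 changes of -0.66 (adjusted p = 0.00324), -0.85 (0.0019) and -0.44 (0.0226) in the same order, the last lost without WF 2 or WF 5.

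Skeletal muscle markers varied widely within groups: their summed signal was 371.5 to 19592.2 on Cop arrays, against 4391.5 to 22872.5 on F344 and 471.4 to 8260.1 on WF arrays, with Myh2 at the floor on 19 of 30 arrays. None of 7 was called in Cop against the other 4 strains, in either direction, while 4 were higher in F344 and 1 was lower in WF. On Cop 1 to Cop 5 the sums were, in order, 19592.2, 371.5, 7806.4, 6859.0 and 2043.9. The Itga7 signals at X65036_at on the same arrays were 1638.7, 1413.4, 1383.2, 1622.0 and 1296.1. Of 6 basal or smooth muscle markers 5 were lower in Cop and 4 higher in WF. The part of muscle cells in the Itga7 differences was not tested.

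Itga1, the alpha chain of a collagen receptor, had 248.2, 322.6, 205.9, 289.0 and 239.7 on F1 arrays, 180.4, 183.4, 161.7, 172.3 and 141.4 on Cop arrays and 316.1, 260.8, 310.6, 294.5 and 289.5 on F344 arrays. It had 177.7, 248.0, 296.1, 228.1 and 328.9 on ACI arrays, 153.8, 139.9, 123.5, 136.7 and 170.2 on BUF/N arrays and 136.3, 129.0, 159.8, 150.3 and 190.4 on WF arrays. F1 and F344 arrays were all above the arrays of Cop, BUF/N and WF, and ACI overlapped both sides. Itga1 was higher in F344 than in the other 4 strains (log2 change 0.76, SE 0.122, adjusted p = 0.000104) and lower in BUF/N (log2 change -0.53, SE 0.122, adjusted p = 0.0032). It was also lower in WF (log2 change -0.43, adjusted p = 0.0294), a call lost without WF 1, WF 2, WF 3 or WF 4 (0.0569 to 0.125). It was higher in ACI (log2 change 0.47, adjusted p = 0.0152), a call lost without ACI 5 (0.105) and without ACI 2 and ACI 5 (0.263). F1 did not differ past the threshold from F344 (adjusted p = 0.369) and was above Cop (log2 change 0.63, adjusted p = 0.00357).

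Itga8, the alpha chain of a receptor for fibronectin and nephronectin, had 77.1, 64.3, 61.2, 63.6 and 81.2 on F1 arrays, 28.4, 40.0, 41.3, 30.3 and 44.4 on Cop arrays and 44.6, 47.2, 32.7, 43.8 and 39.2 on F344 arrays. It had 56.5, 108.4, 65.0, 86.2 and 144.5 on ACI arrays, 89.2, 113.9, 92.8, 73.1 and 83.9 on BUF/N arrays and 97.6, 80.9, 113.7, 88.0 and 65.1 on WF arrays. All Cop and F344 arrays lay below all arrays of the other 4 groups. The change was -1.0 in Cop (SE 0.176, adjusted p = 0.000224) and -0.78 in F344 (SE 0.176, adjusted p = 0.00401) against the other 4 strains, and F1 was above both parents (log2 change 0.93 and adjusted p = 0.00308 against Cop, 0.75 and 0.0124 against F344). The higher calls in ACI, BUF/N and WF were lost in 14, 1 and 16 of 39 alternatives. Without ACI 2 and ACI 5 the ACI call had an adjusted p of 0.699.

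Itgb4, the partner of the alpha-6 chain in hemidesmosomes of basal epithelial cells, was lower in Cop (log2 change -0.55, adjusted p = 0.021), lost without Cop 1 (0.159) or Cop 4 (0.0545). It was higher in BUF/N (log2 change 0.52, adjusted p = 0.0227), lost without BUF/N 3 (0.151). Itgb1, the beta chain of most matrix integrins, had mean signals of 1910 ± 535 in F1, 1851 ± 433 in Cop, 1577 ± 152 in F344, 1499 ± 347 in ACI, 1620 ± 202 in BUF/N and 1675 ± 315 in WF (SD, n = 5 each). It did not pass the F test (adjusted p = 0.559, and 0.0571 to 0.806 under the alternatives). Itga2b and Itgb3, the platelet fibrinogen receptor, and Itgb7 of leukocytes did not pass either (adjusted p = 0.0871 and 0.0742, and 0.57 and 0.17 at the 2 probe sets of Itgb7). Itgae, Itgam and Itgav, expressed on T cells, on myeloid cells and broadly, had no tested probe set, with mean signals of 6.12 to 48.6.

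Of the metalloproteinases, Mmp2 and its membrane-bound activator Mmp14 were both low in Cop. Mmp2, gelatinase A, had 1113.3, 1708.8, 1371.6, 1026.4 and 1042.0 on F1 arrays, 420.2, 679.0, 649.3, 554.1 and 634.6 on Cop arrays and 1053.8, 1185.6, 911.9, 881.1 and 745.3 on F344 arrays. It had 677.0, 639.1, 542.9, 601.0 and 541.5 on ACI arrays, 1322.5, 1120.2, 1325.6, 1839.2 and 1786.9 on BUF/N arrays and 1419.9, 1149.5, 1942.9, 1242.3 and 1407.4 on WF arrays. All Cop and ACI arrays lay below all arrays of the other 4 groups. Mmp2 was lower in Cop (log2 change -0.84, SE 0.136, adjusted p = 8.91e-05) and ACI (log2 change -0.78, SE 0.136, adjusted p = 0.000312) than in the other 4 strains. It was higher in BUF/N (log2 change 0.82, SE 0.136, adjusted p = 0.000117) and WF (log2 change 0.76, SE 0.136, adjusted p = 0.000442). Neither Cop and ACI (adjusted p = 0.904) nor BUF/N and WF (0.967) differed past the threshold, and F344 lay between them, below BUF/N (log2 change -0.62, adjusted p = 0.0112) and above ACI (log2 change 0.66, adjusted p = 0.0127), which was lost without ACI 2 and ACI 5 (0.0661). The 4 calls of Mmp2 against the other 4 strains passed under all 39. A second Mmp2 probe set had a mean signal of 61.9 and was not tested.

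Mmp14 had 5722.6, 3835.8, 4238.2, 5870.7 and 3773.7 on F1 arrays, 1806.7, 2241.4, 2307.3, 2674.8 and 2919.2 on Cop arrays and 3399.6, 2775.4, 2703.3, 2756.2 and 2365.7 on F344 arrays. It had 4688.4, 3378.5, 4104.0, 4234.9 and 3022.9 on ACI arrays, 3793.4, 2945.3, 4849.8, 4951.5 and 3844.2 on BUF/N arrays and 4273.2, 4136.9, 3801.7, 3614.4 and 3335.8 on WF arrays. All Cop arrays lay below all ACI, BUF/N, WF and F1 arrays and overlapped F344. Mmp14 was lower in Cop than in the other 4 strains (log2 change -0.60, SE 0.125, adjusted p = 0.00139), and Cop and F344 did not differ past the threshold (adjusted p = 0.564). Cop minus ACI was -0.70 for Mmp14 (adjusted p = 0.00606) and -0.05 for Mmp2 (0.904).

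Mmp12, macrophage elastase, had 39.3, 54.1, 65.6, 53.9 and 55.4 on Cop arrays, against 57.4 to 149.2 on the other 20 inbred arrays. Only Cop 3 lay inside that range. It was lower in Cop (log2 change -0.84, SE 0.195, adjusted p = 0.00391), a call kept under all 39 alternatives. Of 5 tested leukocyte markers, a list not of macrophages alone, 1 was higher in Cop and none was lower. The part of macrophages in the Mmp12 difference was not tested. Mmp3, stromelysin 1, was lower in BUF/N, with 72.4, 74.6, 62.4, 82.9 and 53.9 on BUF/N arrays, against 42.6 to 220.9 on the 20 others (log2 change -0.70, adjusted p = 0.0301). That call was lost in 5 of 39 alternatives. Mmp3, Mmp11, stromelysin 3, and Mmp23 did not pass the F test (adjusted p = 0.0993, 0.205 and 0.112). Mmp7, Mmp8, Mmp9, Mmp10, Mmp13 and Mmp16 had mean signals of 5.12 to 48.9 and were not tested.

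Of the inhibitors, Timp1 at rc_AI169327_at had 572.9, 491.1, 660.4, 537.9 and 434.3 on F344 arrays and 382.5, 538.9, 619.5, 580.1 and 644.5 on Cop arrays, against 625.4 to 940.0 on ACI, BUF/N and WF arrays. Only Cop 5 and F344 3 reached into that range. The lower level in F344 (log2 change -0.41, adjusted p = 0.0306) was lost without F344 2, F344 4 or F344 5 (0.0604 to 0.147), and that in Cop (log2 change -0.37, adjusted p = 0.0497) in 23 of 39 alternatives. Timp3 was higher in WF, with 460.6, 527.9, 300.4, 443.6 and 375.2 on WF arrays, against 190.0 to 403.7 on the other 20 inbred arrays (log2 change 0.61, adjusted p = 0.0112). That call was lost without WF 2 (0.0673). Timp2 was lower in ACI (log2 change -0.35, adjusted p = 0.0341), lost without ACI 2 and ACI 5 (0.383) and after quantile normalization (0.095).

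The F1 hybrid was set against the mean of its parents, Cop and F344. In F1 21 probe sets differed, 17 higher and 4 lower, with 35.2% of all probe sets passing (17.4% higher and 17.8% lower). The higher ones were 3 fibrillar collagen, 3 laminin, 4 matricellular and other matrix, 2 integrin and 5 metalloproteinase and inhibitor probe sets. Without F1 2 and F1 3 the count was 27, 24 higher and 3 lower, and 18 of the 21 were among them. After quantile normalization 15 were higher and 7 lower, with Col3a1 X70369_s_at, Col1a1 Z78279_at and Dcn Z12298cds_s_at added among the lower. The shares of all probe sets under these settings are not given here, so these counts are not read as particular to the matrix genes. Both pairs, F1 against Cop and F1 against F344, passed in the same direction at 12 probe sets with F1 higher (9.31% of all) and 3 with F1 lower (9.39% of all). These 2 pairs share the F1 arrays.

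**Figure D3:**
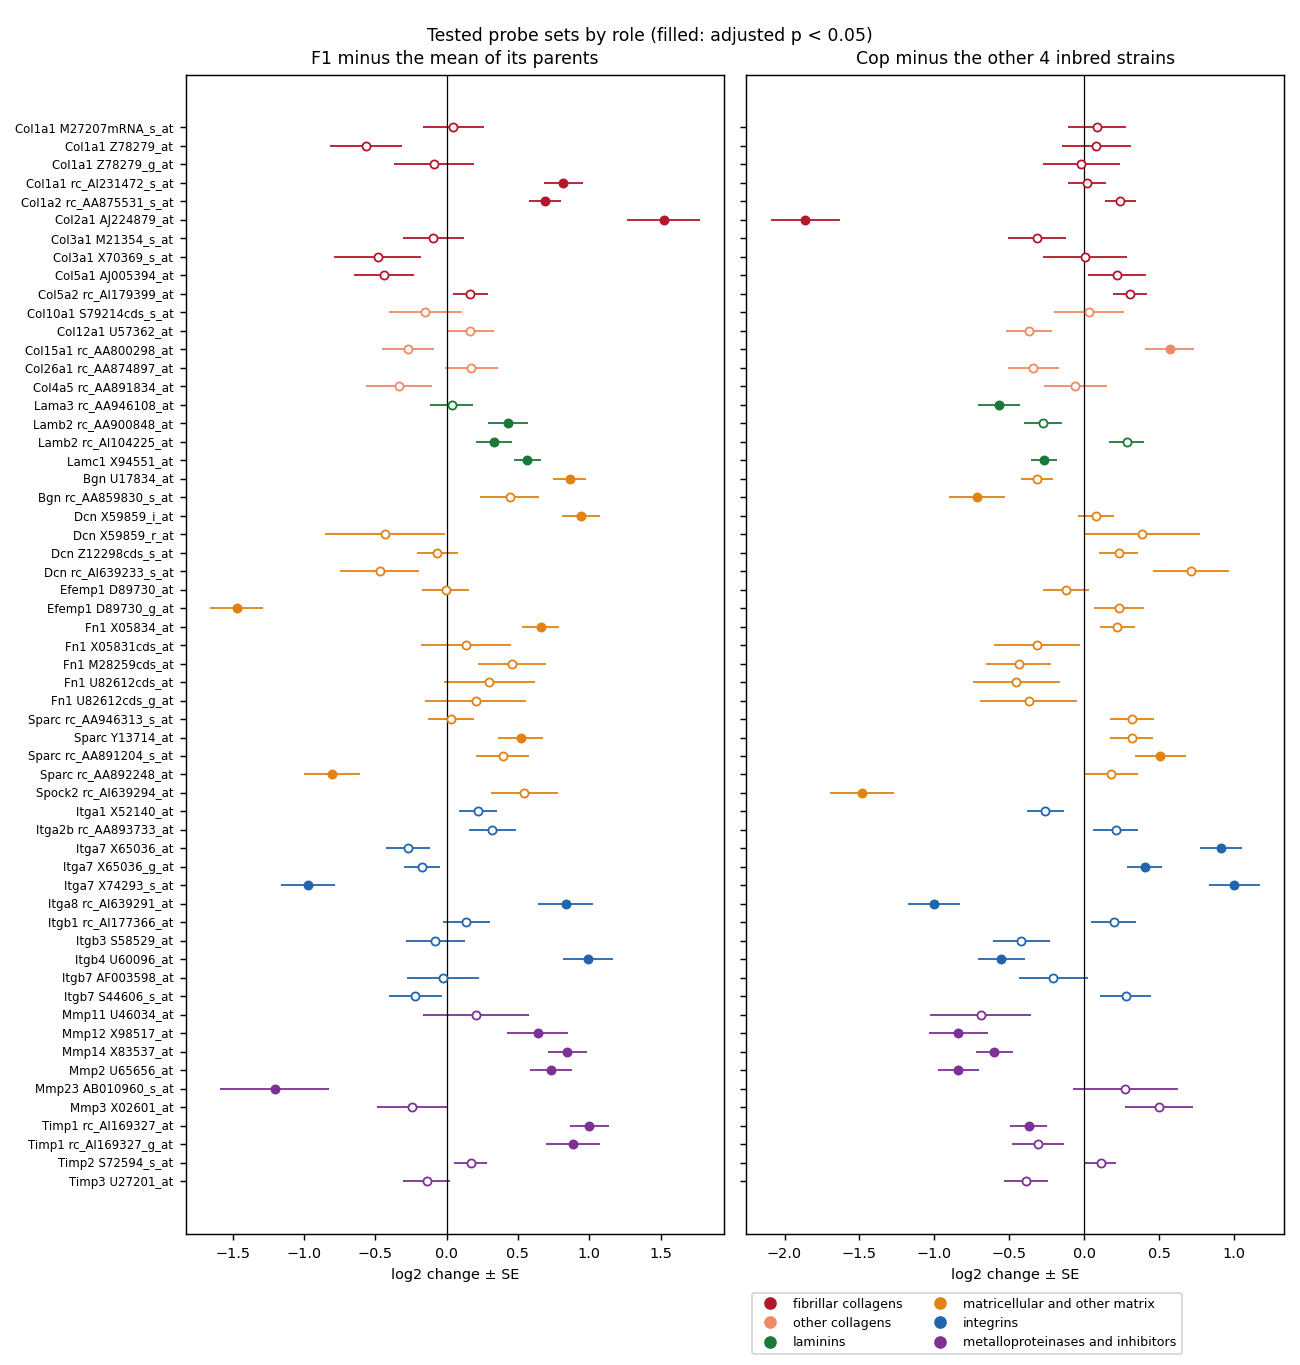
Log2 change with its standard error (horizontal axes) of each of the 58 tested probe sets, in rows by role, for F1 minus the mean of its parents (left) and Cop minus the other 4 inbred strains (right). Filled points have an adjusted p under 0.05. Laminins, Mmp2, Mmp14 and Timp1 lie to the right of 0 in F1, and Col2a1, Spock2 and Itga8 lie farthest left in Cop.

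Timp1 rose at both probe sets in F1. At rc_AI169327_at it had 1200.2, 1075.1, 1375.5, 994.5 and 829.0 on F1 arrays, against 382.5, 538.9, 619.5, 580.1 and 644.5 on Cop and 572.9, 491.1, 660.4, 537.9 and 434.3 on F344 arrays. The F1 arrays did not overlap either parent (log2 change 1.0, SE 0.137, adjusted p = 4.68e-06). At rc_AI169327_g_at the change was 0.89 (adjusted p = 0.000668). Its promoter is shown because all its probe sets rose in F1. The window, chrX:3771073-3771372 on the minus strand, has the single match to the reverse complement of GGGCGG in capitals, 142 bases before the start.
Timp1: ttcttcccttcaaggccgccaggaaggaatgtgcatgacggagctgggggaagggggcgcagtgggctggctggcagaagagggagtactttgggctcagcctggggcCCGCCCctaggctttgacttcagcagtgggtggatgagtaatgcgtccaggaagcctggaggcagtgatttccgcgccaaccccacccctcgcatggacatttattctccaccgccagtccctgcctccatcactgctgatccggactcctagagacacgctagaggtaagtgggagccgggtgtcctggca

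Mmp14 rose in F1 (log2 change 0.85, SE 0.137, adjusted p = 3.73e-05), as did Mmp2 (log2 change 0.73, SE 0.149, adjusted p = 0.000467). All 5 F1 arrays of Mmp14 were above all 10 parental arrays, while those of Mmp2 overlapped F344, from which F1 did not differ past the threshold (log2 change 0.38, adjusted p = 0.0918). Mmp12 rose in F1 (log2 change 0.64, adjusted p = 0.0201), a call lost without F1 1 or F1 2 (0.0803 and 0.0589). Mmp23 had 491.0, 89.9, 91.2, 637.8 and 792.1 on F1 arrays, against 452.2 to 938.1 on the 10 parental arrays. F1 2 and F1 3 were far below every other array, and the change in F1 of -1.20 (adjusted p = 0.0152) became -0.09 without F1 2 and F1 3 (adjusted p = 0.863).

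Lamc1 had 1416.4, 1184.7, 1422.0, 1528.4 and 1204.8 on F1 arrays, against 844.1, 889.4, 811.6, 1023.9 and 903.6 on Cop and 963.6, 817.7, 1112.5, 874.0 and 880.8 on F344 arrays. All F1 arrays were above all parental arrays (log2 change 0.57, SE 0.0974, adjusted p = 7.51e-05). Lamb2 rose at both probe sets (log2 change 0.43 and 0.33, adjusted p = 0.0162 and 0.0388), with the first call lost without F1 4 (0.0569) and the second in 9 of 39 alternatives. Lama3 had a log2 change of 0.03. Itgb4 had 539.0, 832.6, 666.1, 538.2 and 681.8 on F1 arrays, against 177.3, 308.5, 366.4, 274.2 and 313.0 on Cop and 423.7, 414.2, 306.2, 408.4 and 327.5 on F344 arrays, again without overlap (log2 change 0.99, SE 0.175, adjusted p = 9.77e-05). The basal or smooth muscle markers and 6 of 7 luminal markers were also higher in F1.

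Itga7 at X74293_s_at was lower in F1, with 117.7, 146.6, 159.2, 131.5 and 144.5 on F1 arrays, against 366.5, 324.7, 252.3, 334.4 and 291.2 on Cop and 264.5, 244.9, 300.6, 199.8 and 200.8 on F344 arrays (log2 change -0.97, SE 0.188, adjusted p = 0.000264). At X65036_at and X65036_g_at the changes were -0.27 and -0.17 and did not pass. Of 7 skeletal muscle markers 6 were lower in F1, with sums of 180.1 to 2979.8 on F1 arrays, against 371.5 to 22872.5 on parental arrays. Col2a1 had a log2 change of 1.52 in F1 (adjusted p = 5.28e-05), with F1 1 and F1 4 at 84.6 and 97.6, close to the F344 arrays.

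Bgn at U17834_at had 1650.5, 1804.6, 1801.1, 1611.9 and 1778.3 on F1 arrays, against 687.8 to 1162.3 on Cop and 786.6 to 1101.7 on F344 arrays, without overlap (log2 change 0.86, SE 0.118, adjusted p = 4.64e-06). At rc_AA859830_s_at the change was 0.44 (adjusted p = 0.091) and 0.86 without F1 2 and F1 3 (adjusted p = 0.00296). Fn1 at X05834_at had 8149.4, 5168.7, 5813.6, 8115.8 and 4393.4 on F1 arrays, against 3619.3 to 5589.1 on Cop and 2720.3 to 4039.0 on F344 arrays (log2 change 0.66, SE 0.128, adjusted p = 0.000278). F1 arrays overlapped those of Cop. The other 4 Fn1 probe sets had changes of 0.13 to 0.46 and did not pass. At U82612cds_at the change was 1.04 without F1 2 and F1 3 (adjusted p = 0.00459), and at U82612cds_g_at it was 0.99 without F1 2 and F1 3 (adjusted p = 0.0286), both past the threshold.

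The type I collagen genes gave results that depended on the probe set, the arrays and the scaling. Col1a2 had 10055.2, 10752.2, 8865.6, 9350.9 and 6048.2 on F1 arrays, against 5173.5 to 6962.6 on Cop and 4603.2 to 5412.6 on F344 arrays. F1 5 overlapped Cop and the other 4 F1 arrays were above all parental arrays (log2 change 0.69, SE 0.112, adjusted p = 3.68e-05). The change was 0.60 without F1 2 and F1 3 (adjusted p = 0.00151) but 0.20 after quantile normalization (adjusted p = 0.0864). Its promoter, chr4:33518307-33518606 on the plus strand, is shown because Col1a2 rose in F1, with a reverse complement of CCAAT and a TATAAA in capitals, 221 and 170 bases before the annotated start.
Col1a2: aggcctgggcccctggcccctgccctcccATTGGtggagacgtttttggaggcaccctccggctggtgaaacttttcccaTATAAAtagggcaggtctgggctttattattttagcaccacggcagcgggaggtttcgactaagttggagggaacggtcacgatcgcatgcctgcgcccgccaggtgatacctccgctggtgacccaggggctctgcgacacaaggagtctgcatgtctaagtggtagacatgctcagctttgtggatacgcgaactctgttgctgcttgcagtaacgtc

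Col1a1 at rc_AI231472_s_at had 15934.5, 14461.6, 12357.9, 14972.4 and 10878.7 on F1 arrays, against 6186.8 to 10259.5 on Cop and 6651.9 to 8342.3 on F344 arrays. The groups did not overlap (log2 change 0.82, SE 0.136, adjusted p = 4.76e-05), but the change was 0.05 after quantile normalization (adjusted p = 0.716). At the other 3 Col1a1 probe sets F1 2 and F1 3 were low. At Z78279_g_at the F1 arrays had 9963.2, 1940.0, 1797.1, 9341.6 and 8113.5, against 4316.3 to 7011.5 on Cop and 4193.7 to 5268.0 on F344 arrays. F1 2 and F1 3 lay below every parental array and F1 1, F1 4 and F1 5 above every one. The change there was -0.09 (adjusted p = 0.84) with all arrays and 0.83 without F1 2 and F1 3 (adjusted p = 0.000336). At M27207mRNA_s_at the change was 0.05 with all arrays and 0.63 without F1 2 and F1 3 (adjusted p = 0.00763), and at Z78279_at -0.57, 0.26 without F1 2 and F1 3 (adjusted p = 0.143) and -0.73 after quantile normalization (adjusted p = 0.0163). Col3a1 was split likewise: at X70369_s_at the F1 arrays had 13052.4, 2125.2, 1792.3, 12497.3 and 9538.8, against 6739.5 to 9543.8 on Cop and 6972.2 to 8482.0 on F344 arrays. The change was -0.48 (adjusted p = 0.223), 0.54 without F1 2 and F1 3 (adjusted p = 0.0054) and -0.98 after quantile normalization (adjusted p = 0.00334). At M21354_s_at it was -0.09 with all arrays and 0.57 without F1 2 and F1 3 (adjusted p = 0.00144).

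Over all tested probe sets, F1 2 and F1 3 were both less than 50% of the lowest other F1 array at 455 (9.03%), and among the matrix genes at 7: Mmp23, both of Col3a1, 3 of 4 of Col1a1 and 1 of 5 of Fn1. They were both more than 2 times the highest other F1 array at 12 of all (0.238%), and here at 1, Dcn X59859_r_at. The Dcn probe sets differed in how F1 2 and F1 3 lay. At X59859_i_at it had 13816.7, 19718.6, 15474.3, 11711.4 and 8654.0 on F1 arrays, against 6805.7 to 7514.4 on Cop and 5996.0 to 7729.9 on F344 arrays, without overlap (log2 change 0.94, SE 0.13, adjusted p = 4.9e-06), with 0.22 after quantile normalization (adjusted p = 0.0327). At X59859_r_at the F1 arrays had 390.5, 1373.4, 1038.6, 507.9 and 470.6 and at Z12298cds_s_at 6310.1, 3398.8, 3024.8, 6477.9 and 5147.8. The changes at the 3 other Dcn probe sets were -0.47 to -0.07 and did not pass. At rc_AI639233_s_at the change was -0.86 without F1 2 and F1 3 (adjusted p = 0.045), a lower call. At Z12298cds_s_at it was 0.29 without F1 2 and F1 3 (adjusted p = 0.087) and -0.33 after quantile normalization (adjusted p = 0.0399), the second a lower call.

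Sparc was the only gene of the group with probe sets called in both directions in F1. At Y13714_at it was higher (log2 change 0.52, adjusted p = 0.0111) and at rc_AA892248_at lower (log2 change -0.81, adjusted p = 0.00233). Both calls were lost without F1 2 and F1 3 (0.192 and 0.218). At rc_AA892248_at the F1 arrays had 3095.5, 1149.9, 1370.9, 2729.2 and 3745.1, against 3070.5 to 5405.6 on Cop and 3142.0 to 4135.2 on F344 arrays. At rc_AA946313_s_at the change was 0.03 with all arrays and 0.44 without F1 2 and F1 3 (adjusted p = 0.0217). Of the 11 genes with several tested probe sets, 2 had all of them called in F1 (Timp1 and Lamb2) and 7 had some but not all.

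**Figure D4:**
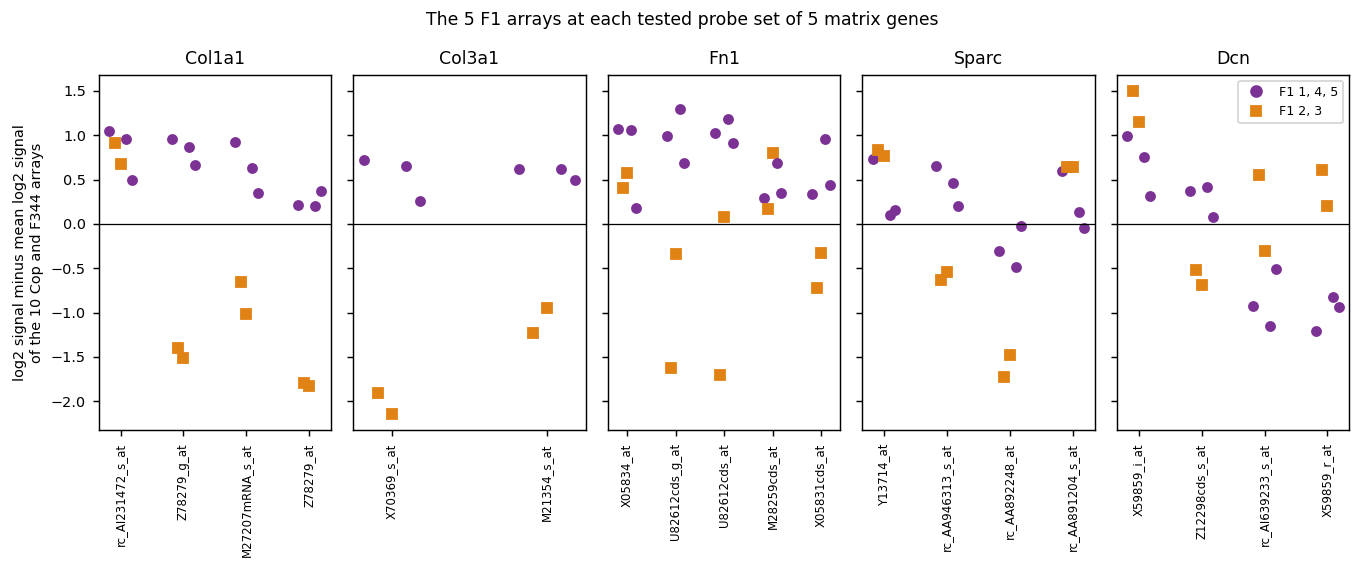
Log2 signal of each F1 array minus the mean log2 signal of the 10 Cop and F344 arrays (vertical axis) at each tested probe set of Col1a1, Col3a1, Fn1, Sparc and Dcn, with F1 1, F1 4 and F1 5 as circles and F1 2 and F1 3 as squares. At 3 Col1a1 and both Col3a1 probe sets the squares lie below 0 and the circles above it, while at Col1a1 rc_AI231472_s_at all 5 lie above 0.

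Cop and F1 together were set against F344, BUF/N and WF, since resistance is known to pass from Cop to its F1 hybrids. ACI was left out. In this comparison 19 probe sets differed, 11 higher and 8 lower, with 16.5% of all probe sets passing (7.50% higher and 8.99% lower), and 11 of the 19 calls passed under all 39 alternatives. The largest lower changes were in Spock2 (log2 change -0.88, SE 0.175, adjusted p = 0.000976), Col2a1 (log2 change -0.88, SE 0.19, adjusted p = 0.00203) and Mmp2 (log2 change -0.56, SE 0.111, adjusted p = 0.00096). The largest higher ones were in Itga7 (log2 change 0.64, SE 0.114, adjusted p = 0.000313), Sparc at rc_AA891204_s_at (log2 change 0.57, SE 0.139, adjusted p = 0.00615), Fn1 at X05834_at (log2 change 0.53, SE 0.0954, adjusted p = 0.000395) and Col1a2 (log2 change 0.51, SE 0.0836, adjusted p = 0.000106). For the lower 3, F1 stood away from Cop: F1 minus Cop was 1.85 for Spock2, 1.08 for Mmp2 and 2.04 for Col2a1. Of the higher ones, F1 was below Cop for Itga7 at X65036_at (log2 change -0.62, adjusted p = 0.0107). At this probe set F1 was above WF (log2 change 0.64, adjusted p = 0.0148) and did not differ past the threshold from F344 or BUF/N. F1 was above Cop for Fn1 (log2 change 0.44, adjusted p = 0.026) and Col1a2 (log2 change 0.56, adjusted p = 0.00208). Fn1, Col1a2 and Sparc at these probe sets were called in no pair of Cop with F344, BUF/N or WF. No probe set was called in the same direction in all 6 pairs of Cop or F1 with F344, BUF/N or WF. Over all probe sets 0.139% were called higher and 0.179% lower in all 6.

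In Cop minus F344 6 probe sets differed (3.45% of all), and the 2 pools can be set beside them. For Spock2 the signals were 25.9 in the Cop pool and 92.4 in the F344 pool, for Itga1 137.9 and 301.2, for Mmp2 524.2 and 914.2, for Col2a1 38.3 and 64.2, for Lama3 109.2 and 158.3, and for Itga7 at X65036_at 1378.5 and 929.1. All 6 had the direction of the single arrays, as did 38 of the 58 tested probe sets. The same share over all tested probe sets is not given here, so the 38 have no baseline. The pools have no replicates, and whether they hold the same RNA as the single arrays is not given in the sources used here.

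Beyond these families, 132 other genes of matrix assembly, structure, adhesion, proteolysis and fibrogenic growth factors were listed, of which 87 were on the array and 69 were tested. Each was counted by its probe set of highest mean signal. Of these 39 passed the F test, against 51.8% of all tested probe sets. In F1 14 were higher and 7 lower than in its parents, against 17.4% and 17.8% of all probe sets. In Cop 6 were higher and 10 lower than in the other 4 strains, against 5.54% and 6.21% of all. Eln, for elastin, had 1463.5 to 2295.1 on F1 arrays, against 599.7 to 1125.2 on Cop and 607.5 to 961.0 on F344 arrays (log2 change 1.28, adjusted p = 1.39e-05). Loxl1, which cross-links elastin, had 1564.4 to 4568.1 on F1 arrays, against 1145.3 to 1938.8 on Cop and 1080.8 to 1298.6 on F344 arrays (log2 change 1.26, adjusted p = 1.22e-05). The F1 arrays did not overlap the parental ones for Eln and did for Loxl1. Reln, for the secreted protein reelin, rose in F1 (log2 change 1.29, adjusted p = 6.18e-06).

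Mgp, matrix Gla protein, an inhibitor of calcification, had 882.1 to 1531.6 on Cop arrays, against 2058.8 to 2545.6 on F344 and 2471.3 to 4126.7 on WF arrays, and was lower in Cop (log2 change -1.23, adjusted p = 1.54e-06). Ccn1, a matricellular ligand of integrins, had 4.80 to 35.8 on BUF/N arrays, against 56.1 to 290.6 on the other 20 inbred arrays, and was lower in BUF/N (log2 change -2.13, adjusted p = 2.86e-07). Its BUF/N signals reached under the floor of 18.3, so the size of this change is a lower bound. Ddr1, a collagen receptor kinase, was lower in F344 (log2 change -0.95, adjusted p = 0.000376). Cd9, a tetraspanin that binds integrins, was lower in ACI (log2 change -0.85, adjusted p = 0.00333) and in Cop (log2 change -0.61, adjusted p = 0.0268). Ctsb, the lysosomal protease cathepsin B, rose in F1 by 0.28 on the log2 scale (adjusted p = 0.0136).

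To describe variation within groups, each group's mean was subtracted. The median correlation over the 30 arrays of the 666 gene pairs was 0.06, with a range of -0.61 to 0.79, against 0.003 over all pairs of tested probe sets. Probe sets of the same gene correlated at 0.939 for Col3a1 and 0.856 for Timp1, but at -0.457 to 0.734 for the 4 of Dcn and -0.18 to 0.88 for the 4 of Sparc. These values share their arrays and scaling and are descriptions, with no test.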

How the data were processed

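Microarray Suite 5.0 was used by the authors to make the deposited intensity values, per the labels, and the arrays were already scaled to like trimmed means when deposited, as the values show. How each strain was bred, housed or aged is not given in the sources used here. Probe sets were named through the platform annotation (6994 matched by gene ID). The 59 control probe sets were left out, a floor of 18.3 and a log2 step were applied, and 5039 probe sets were tested on the 30 single arrays with limma 3.58.1 in R 4.3.3 (lmFit on group means, eBayes with trend, Benjamini-Hochberg adjustment within each comparison at 0.05). P-values in the text are from this fit or, where an alternative is named, from the same test under that alternative. Sample groups came from the labels, and the 2 pools entered no test. The number of arrays limits the precision. The test was tried on simulated data. Alternatives were another floor, an offset of 50, no filter, quantile normalization, the replicate number as a block, array weights, and arrays left out. Same-numbered arrays correlated at -0.452 to 0.398 after group means were removed, so the numbers were not taken as pairs.

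The genes and lists were chosen with earlier results of these data known. Named genes are up to 4 per role by the F test, up to 4 per comparison and direction by size of change, a fixed list of major matrix genes, in which Col4a1 had no probe set, and up to 8 other matrix pathway genes by the F test. Other probe sets of these genes, and genes named without a call, were added to account for all members.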

Additional observations from a re-analysis of the deposited data

Results flagged for a closer look

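Among 228 groups of 5 arrays at the named probe sets, 7 (3.07%) held an array whose gap to its nearest neighbour exceeded 0.71 of the group's range, where chance gives about 1 in 20. Efemp1 at D89730_g_at was 475.4 on F1 5, against 155.2 to 227.1 on the other F1 arrays. Col1a1 at rc_AI231472_s_at was 9251.9 on ACI 1, against 6799.9 to 7346.4 on the other ACI arrays. Col26a1 was 122.9 on ACI 5, against 79.2 to 89.6. Itgb4 was 768.8 on BUF/N 3, against 410.5 to 486.6 on the other BUF/N arrays, and its higher call in BUF/N was lost without that array. Itgb1 was 1267.9 on BUF/N 1, against 1651.4 to 1760.4. Spock2 was 137.6 on F344 1, against 98.3 to 109.4 on the other F344 arrays, and Timp3 was 234.4 on the same array, against 321.0 to 343.8. Neither Spock2 call, F344 against Cop nor F344 against the other 4 inbred strains, was lost without F344 1.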

How the results depend on the processing

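Of 82 named results, 79 were past the threshold, 48 of them under all 39 alternatives and 31 not under at least 1. None of those with a direction changed it, but F tests have none, and results outside the fixed list were chosen because they passed. Other F1 changes did change sign, as at Col3a1 X70369_s_at, with -0.48 on all arrays and 0.54 without F1 2 and F1 3. With array weights the calls over the 15 pairs numbered 290, those in F344 22 and those in F1 34. Without F1 2, F1 3, ACI 2 and ACI 5 there were 13 calls in F344. Chosen after seeing the data, leaving out F1 2 and F1 3 gave 12 in F344, and leaving out ACI 2 and ACI 5 gave 3 in ACI. Leaving out 1 array at a time gave 32 to 38 for the F test, 166 to 205 over the pairs, 12 to 17 in Cop, 4 to 10 in F344, 3 to 7 in ACI, 10 to 18 in BUF/N, 5 to 13 in WF, 20 to 24 in F1 and 17 to 21 for Cop with F1 against the 3 susceptible strains. The causes were not tested. Fitting the replicate number as a block gave 36 for the F test, 187 over the pairs, 15 in Cop, 8 in F344, 6 in ACI, 16 in BUF/N, 12 in WF, 20 in F1 and 19 in the last comparison. Shares of all probe sets under these alternatives are not given here, so the counts are not read as particular to this gene group. Same-numbered arrays share only a number, and 5 of 30 arrays correlated best with their own number. Quantile normalization moved the median change of F1 minus ACI over all probe sets by 0.102 on the log2 scale. It ended the F1 calls of Col1a1, Col1a2 and Sparc at Y13714_at. Signals near the floor, as for Spock2 in Cop, bound a change and do not measure it.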
